A study of Mus musculus with 2 samples.

Results

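Molecular chaperone genes were followed across 2 populations of blood cells of mouse fetal liver at E13.5. SoNar is a fluorescent protein that reports the balance of NADH and NAD+ in the cytosol, and the sort used its F405/F488 ratio. The first population, SoNar-high, had a high ratio and carries the strain label C57BL/6, and the second, SoNar-low, had a low ratio and carries the strain label C57BL. Total RNA of each was labelled with Cy3 and hybridised to 1 Agilent array. The labels name no agent or allele beside the sensor, do not say which promoter drives it and do not say how many embryos were pooled. With 1 array per group there are no replicates and no test, so every difference below is a difference between these 2 arrays.

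The chaperone genes were chosen by symbol: Tcp1 and Cct plus a digit (the cytosolic chaperonin), symbols that start with Hspa, Hspb, Hspd, Hspe, Hsph or Hsp90, and Dnaja, Dnajb or Dnajc plus a digit, without Hspbp1 and Hspbap1. The gene table held 99 such symbols, and 80 of them had at least 1 named probe among 20659 genes with a named probe. Of the other 19 symbols, 17 are annotated as pseudogenes, and the remaining 2, Hspa1b and Dnajb5, were not analysed here. A gene counted as measured if a probe was well above background on both arrays by the scanner's flag. This held for 57 of the 80 chaperone genes, against 49.5% of all named genes. A further 3 passed that flag in SoNar-high cells alone, none in SoNar-low cells alone, and 20 in neither. Of all 20659 named genes, 1621 passed it in SoNar-high cells alone, 153 in SoNar-low cells alone and 8657 in neither.

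Chaperones help other proteins reach and keep their folded state. The chaperonins, CCT in the cytosol and Hsp60 with its lid Hsp10 in mitochondria, are closed barrels that enclose a client. CCT is known for folding tubulin and actin. Hsp70 proteins bind short exposed stretches in a cycle driven by ATP, J proteins (Dnaja, Dnajb and Dnajc) start that cycle and bring clients, and Hsp110 proteins release the nucleotide. Hsp90 proteins act later, on clients such as kinases and steroid receptors, and small heat shock proteins hold unfolded proteins without ATP. In human erythroblasts Hsp70 is known to protect the transcription factor GATA1 from cleavage.

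The scanner's flag was passed by 49.4% of 43020 spots for SoNar-high cells and 42.4% for SoNar-low cells. The processed signal is the scanner software's background-subtracted intensity, and its 75th percentile was 186.5 units for SoNar-high and 222.2 units for SoNar-low cells. Each log2 value was taken relative to that percentile, so a signal printed here is not yet scaled, whereas each log2 difference (SoNar-high minus SoNar-low) is. For 213 probes printed 10 times, the spot-to-spot SD of a log2 difference had a median of 0.16. This covers error on the slide and not differences between embryos, sorts or labelling reactions. The median difference of all 10223 measured genes was -0.08.

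Most measured chaperone genes had slightly lower signal in SoNar-high cells. Of the 57, 42 had a difference below 0 and 15 above it, whereas 55.8% of all measured genes were below 0 and 44.2% above it. The median of the 57 was -0.26 against -0.08 for all genes. After loess, which removes the trend of the difference with signal, 34 of the 57 were below 0 (median -0.12), against 48.5% of all genes (median 0.018). Few differences were large. Only Dnaja4 was at least 2-fold higher (1 of 57, against 5.28% of all genes), and Hspd1, Dnajb12, Hspb11 and Dnajc7 were at least 2-fold lower (4 of 57, against 4.44%). In either direction the share of all genes was 9.72%, so the 5 chaperone genes were near that background. These splits depend on scaling and on the filter. All genes gave 540 higher and 454 lower here, but 782 and 247 when only detected probes set the 75th percentile, a change that shifted every difference by 0.15. Chaperone genes then gave 2 higher and 1 lower. The split of all genes was 639 higher and 354 lower with the median of detected probes and 649 and 347 after loess, where chaperone genes gave 1 and 3, and 1 and 2. Dropping the filter on dim probes keeps the scaling but counts 20655 genes, 80 of them chaperone genes. All genes then gave 2476 higher and 659 lower, and chaperone genes 5 and 4. In RNA of a whole sorted population, fewer cells of a type and less RNA per cell cannot be told apart.

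**Figure D1:**
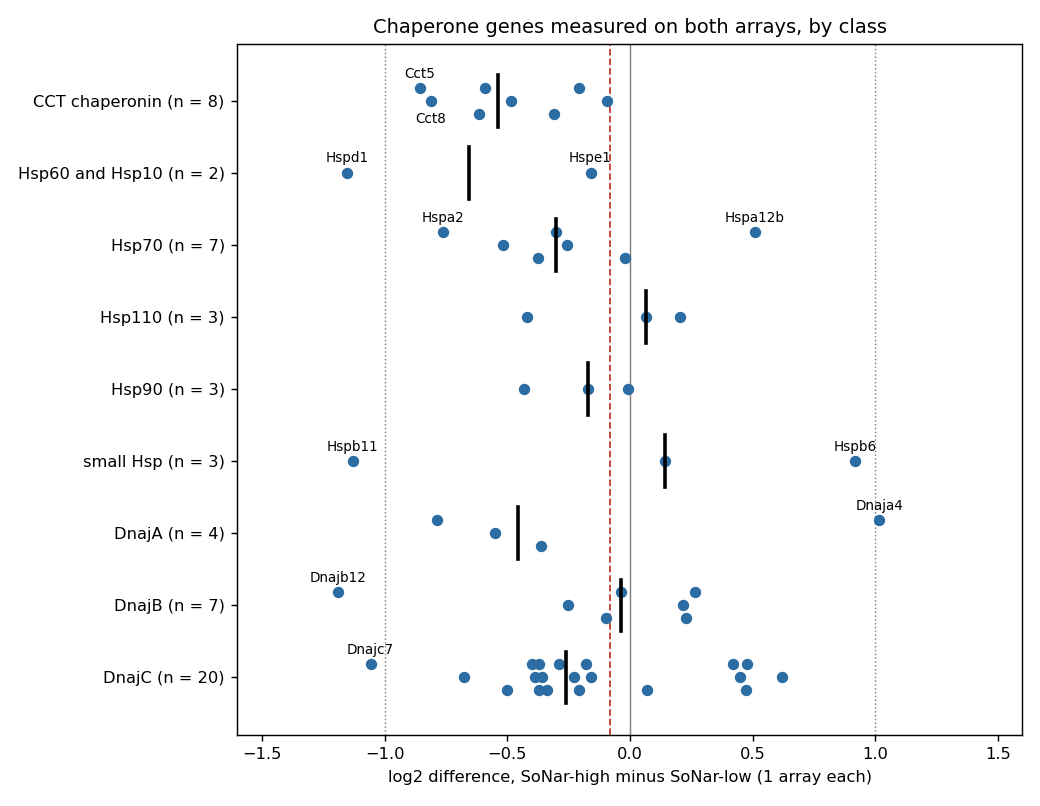
Log2 difference between the arrays (horizontal axis, SoNar-high minus SoNar-low) of each of the 57 measured chaperone genes, by class; black bars are class medians, the dashed line is the median of all genes (-0.08) and dotted lines mark 2-fold. All 8 CCT genes lie below 0, against 55.8% of all genes, and Cct7 and Cct6a change sign under other settings. Of the 57, 1 gene lies beyond 2-fold on the right and 4 on the left.

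With 75th percentile scaling, bright chaperone genes were below 0 more often than dim ones. Among the 27 with a geometric mean of the 2 processed signals of at least 1000, 25 had a difference below 0 and the median was -0.31. All genes of that brightness had 64.9% below 0 and a median of -0.17. The 2 exceptions were Hsph1 (0.07) and Dnajc5 (0.45). Among the 30 dimmer members 17 were below 0, close to the 52.5% of dimmer genes, with a median of -0.17. After loess the bright genes had 18 of 27 below 0, with Cct6a, Cct7, Hspa5, Hsp90aa1, Hsp90ab1, Hspe1 and Dnajb11 also above 0, against 47.5% of all genes of that brightness. The dim ones then had 16 of 30 below 0, against 48.8% of dimmer genes. In the deposited table and after quantile normalization 20 of the 27 were below 0. All genes of that brightness had 49.8% below 0 in the deposited table and 51.6% after quantile normalization. The boundary of 1000 was chosen after the values were seen.

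All measured genes of the cytosolic chaperonin had lower signal in SoNar-high cells, although Cct7 and Cct6a changed sign under some other settings. Of all genes 55.8% were below 0, and 64.9% of those with a geometric mean signal of at least 1000. After loess 6 of the 8 chaperonin genes were below 0, against 48.5% of all genes. Each CCT ring is built from 8 different subunits, and all 8 genes of the somatic set were measured, each with 1 probe. Cct5 had a processed signal of 4083 in SoNar-high cells and 8804 in SoNar-low cells, a difference of -0.86. Cct8 had 681 in SoNar-high and 1425 in SoNar-low cells (-0.81). These were the lowest of the 8, at percentiles 7.36 and 8.62 of all measured genes. Tcp1, the subunit after which the complex was first named, had 1215 in SoNar-high and 2218 in SoNar-low cells (-0.62). Cct4 had 1534 in SoNar-high and 2751 in SoNar-low cells (-0.59), and Cct3 had 769 and 1283 in the same order (-0.49). Smaller differences were those of Cct2 (5518 in SoNar-high against 8158 in SoNar-low cells, -0.31), Cct6a (2770 against 3812, -0.21) and Cct7 (4125 against 5249, -0.10). None reached 2-fold, and the difference of Cct7 was smaller than the spread between spots.

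The 8 CCT genes had a median of -0.54, which is -0.46 relative to the median of all genes. That relative median lay between -0.47 and -0.32 under the other settings. It cannot change when detected probes set the scaling, which shifts all genes alike. Settings that only change the filter or the choice of probe left the 8 differences as they were. It was -0.41 after normexp, -0.34 after loess, -0.33 after quantile normalization and -0.32 in the deposited table. Cct7 had the other sign under 5 of 9 other settings (up to 0.15 after normexp background correction), and Cct6a under 1 (0.02 after loess). Cct5 passed 2-fold after normexp (-1.10). The testis-type subunit gene Cct6b and the related Cct8l1 were at background on both arrays.

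Prefoldin, the hexamer that hands actin and tubulin chains to CCT, was looked at beside it. Of 8 genes of prefoldin and of phosducin-like CCT helpers, all measured, 6 had a difference below 0, 1 was at least 2-fold lower and none at least 2-fold higher. Of all genes 55.8% were below 0, 4.44% at least 2-fold lower and 5.28% at least 2-fold higher. The median of the 8 was -0.54, against -0.08 for all genes. Pfdn4 had 92.1 in SoNar-high and 227 in SoNar-low cells (-1.05), and the helper Pdcl had 464 and 908 in the same order (-0.72). At the other end Pfdn2 (0.05) and Pfdn5 (0.04) hardly differed.

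**Figure D2:**
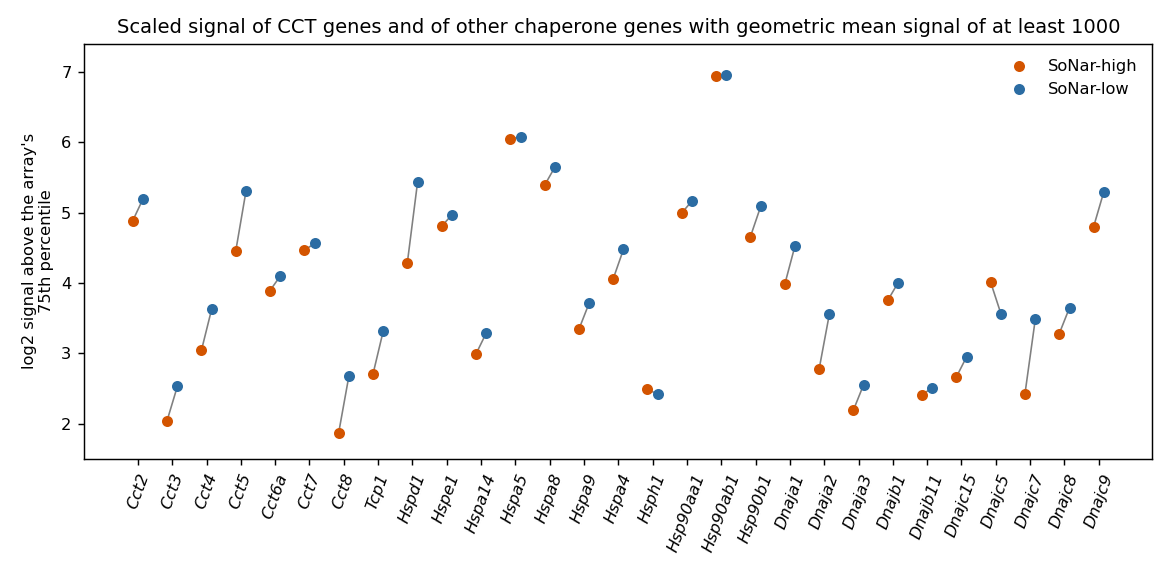
Log2 signal relative to the array's 75th percentile (vertical axis) for the 8 CCT genes and the other chaperone genes with a geometric mean signal of at least 1000, with SoNar-high left of SoNar-low and a line joining the 2 arrays of a gene. With this scaling the line rises to SoNar-low in 27 of 29 genes. Of all genes with a geometric mean signal of at least 1000, 64.9% had a difference below 0. Heights of different genes are readings of different probes and are not comparable.

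Marker genes of several cell types differed by more than the chaperone genes did. Among all measured genes 44.2% were above 0 and 55.8% below it. All 9 measured erythroid markers were above 0 (median 1.24), with a summed processed signal of 17527 in SoNar-high and 9432 in SoNar-low cells over 11 genes. Stem and progenitor markers were below 0 in 9 of 9 (median -0.82, sum 14130 in SoNar-high and 26340 in SoNar-low cells), and B lymphoid markers in 10 of 10 (median -1.39, 5181 and 17583 in the same order). Macrophage markers had 8 of 8 above 0 (median 2.98, 18986 in SoNar-high and 8549 in SoNar-low cells), hepatic markers 8 of 8 (1.90, 18118 and 7212) and endothelial markers 5 of 5 (2.56, 3804 and 1030). Neutrophil markers had 7 of 8 above 0 (0.59, 206958 in SoNar-high and 163715 in SoNar-low cells), and T and natural killer markers 2 of 6 (-2.07, 2022 and 7794). Sptb, Cd163, Mertk, Apoa1, Mecom and Ncr1 of these lists were at background on both arrays. Of 12 cell cycle genes, 8 were below 0 (median -0.30), close to the chaperone median, and after loess 6 were (median -0.09). The part that the mix of cells or their cycling has in the chaperone differences was not tested.

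The mitochondrial chaperonin pair was split. Hspd1, which encodes Hsp60, had 3630 in SoNar-high and 9625 in SoNar-low cells, a difference of -1.15 (2.23-fold lower, percentile 2.43 of all genes). It has 1 probe on the array. Hspe1, which encodes the lid Hsp10, was read by 3 measured probes. Its brightest had 5225 in SoNar-high and 6958 in SoNar-low cells (-0.16), the next had 4186 and 6266 (-0.33), and a dim probe had 51.0 and 112 (-0.88). All 3 were below 0 and none reached the difference of Hspd1. The difference of Hspd1 was below 0 under all 9 other settings (-1.49 to -0.94). It passed 2-fold after normexp (-1.49) and with the median of detected probes (-1.09). It was just under 2-fold with the 75th percentile of detected probes (-0.999). After loess and quantile normalization it was -0.95, and in the deposited table -0.94. Settings that only change the filter or the choice of probe repeat its value, since it has 1 probe. The difference of the brightest Hspe1 probe turned positive in 3 settings (up to 0.07).

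Hspd1 and Hspe1 lie head to head around a common promoter, and the short run below is shown because both genes have it although their differences were unequal. In RefSeq (GRCm38.p6) a start of Hspd1 on the minus strand is at base 55087932 of chromosome 1 and that of Hspe1 on the plus strand at base 55088148. The run, chr1:55088053-55088082 on the plus strand, lies between them. Capitals mark overlapping matches to GAANNTTC and TTCNNGAA, the half-site patterns of the heat shock element that heat shock factors bind.
Hspd1-Hspe1: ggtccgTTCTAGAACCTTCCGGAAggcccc
It holds 2 matches of TTCNNGAA and 1 of GAANNTTC. A further start of Hspd1 is listed at base 55088243, upstream of the run for that gene.

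Hsp70 genes were mostly a little lower in SoNar-high cells, with 6 of 7 measured members below 0 and a median of -0.30. All genes had 55.8% below 0 and a median of -0.08. After loess 5 of the 7 were below 0 (median -0.10), against 48.5% of all genes (median 0.018). Hspa8, the constitutive cytosolic Hsc70, had 7819 in SoNar-high and 11141 in SoNar-low cells at its brightest probe (-0.26). Its other probes gave 2935 against 3754 (-0.10) and 1691 against 5380 (-1.42), so the size of its difference is uncertain. Hspa9, mitochondrial mortalin, had 1889 in SoNar-high and 2917 in SoNar-low cells (-0.37). Hspa14, which works at the ribosome with the J protein Dnajc2, had 1480 and 2170 in the same order (-0.30), and Dnajc2 had 170 and 268 (-0.40). Hspa5 (BiP), the Hsp70 of the endoplasmic reticulum, was nearly equal with 12401 in SoNar-high and 14977 in SoNar-low cells (-0.02), and its sign changed in 5 of 9 settings.

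The dim Hsp70 genes spread more widely. Hspa2, best known from male germ cells, had 41.3 in SoNar-high and 83.3 in SoNar-low cells (-0.76). It was past 2-fold in the deposited table and after quantile normalization (-1.02 in each), and had -0.38 after normexp. Hspa13, a microsomal Hsp70, had 82.2 and 140 (-0.52), and Hspa12b, known from endothelium, had 71.0 and 59.4 in the same order (0.51). Heat-inducible Hspa1a was not well above background on either array, with 34.0 in SoNar-high and 14.4 in SoNar-low cells. Hspa12a was at background on both, and Hspa1l, with 34.0 in SoNar-high and 30.2 in SoNar-low cells, was above it only in SoNar-high cells, at least 1.09-fold higher. The 2 Hspa1 copies are near-identical in sequence, and a probe for one can bind the other.

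The 3 Hsp110 genes had differences of both signs and a median of 0.07. Hsph1 had 1045 in SoNar-high and 1189 in SoNar-low cells (0.07), with its other probe at -0.16. Hspa4l had 282 and 292 in the same order (0.20). Hspa4 had 3109 in SoNar-high and 4953 in SoNar-low cells at its bright probe (-0.42), whereas its dim probes gave 0.72 and 0.22.

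The 2 cytosolic Hsp90 genes hardly differed, and the third, of the endoplasmic reticulum, was lower in SoNar-high cells. Hsp90ab1, the constitutive cytosolic form, had 22962 in SoNar-high and 27537 in SoNar-low cells (-0.01), and the inducible form Hsp90aa1 had 5955 and 7999 (-0.17). Each had the other sign in 3 of 9 settings. Hsp90b1 (Grp94), the form of the endoplasmic reticulum, had 4718 in SoNar-high and 7572 in SoNar-low cells (-0.43) and kept its sign in all 9.

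Co-chaperones of Hsp70 and Hsp90 had small differences. Of 25 listed, 24 were measured, 16 were below 0, none passed 2-fold, and the median was -0.11. All genes had 55.8% below 0, 9.72% past 2-fold and a median of -0.08. After loess 10 of the 24 were below 0 (median 0.07), against 48.5% of all genes (median 0.018). Ptges3 (p23, which stabilises closed Hsp90) had 5109 in SoNar-high and 9385 in SoNar-low cells (-0.62), and Sugt1, an Hsp90 partner at kinetochores, had 1311 and 2319 in the same order (-0.57). Stub1 (CHIP, the ubiquitin ligase that binds chaperones) had 1004 in SoNar-high and 836 in SoNar-low cells (0.52), and the immunophilin Fkbp4 had 2064 and 1915 (0.36). For the heat shock factors, Hsf2 had 132 in SoNar-high and 281 in SoNar-low cells (-0.84) and Hsf1 had 1774 and 2437 (-0.21), while Hsf4 was at background.

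Among J proteins of class A, 3 of 4 were lower and 1 higher, against 55.8% and 44.2% of all genes. Dnaja2 had 1274 in SoNar-high and 2617 in SoNar-low cells (-0.79) and -0.66 at its other probe. Dnaja1 had 2945 and 5142 (-0.55), and Dnaja3, the mitochondrial member, 852 and 1307 in the same order (-0.36). Dnaja4 went the other way, with 214 in SoNar-high and 126 in SoNar-low cells (1.02, 2.02-fold higher). It stood just past 2-fold. It was also past it with the 75th percentile (1.17) and the median (1.08) of detected probes and after loess (1.02). It was under 2-fold after normexp (0.76), after quantile normalization (0.98) and in the deposited table (0.98). The remaining settings repeat its value, since it has 1 measured probe. Hspb6, at 0.92, lay just short of 2-fold and passed it with the 75th percentile of detected probes (1.07).

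Class B had 7 measured members with a median of -0.03. Dnajb12, a J protein of the endoplasmic reticulum membrane, had 143 in SoNar-high and 388 in SoNar-low cells (-1.19, 2.28-fold lower), the largest difference of all 57. It stayed past 2-fold in 8 of 9 settings and had -0.96 after normexp. Some of the 8 only repeat its value, since it has 1 probe. The heat-inducible Dnajb1 had 2512 in SoNar-high and 3561 in SoNar-low cells (-0.25). Dnajb6, which keeps aggregating proteins soluble, had 4 measured probes between -1.16 and -0.03, the brightest at -0.03. Dnajb4 (0.22), Dnajb14 (0.23) and Dnajb9 (0.27) were slightly above 0, and Dnajb11 (-0.10) slightly below. Dnajb2 was above background only in SoNar-high cells, with 66.6 there and 26.2 in SoNar-low cells, at least 2.14-fold higher. A bound of at least 2-fold in this direction was met by 0.973% of all named genes, and by 0.165% in the other. Dnajb8, also above background only in SoNar-high cells, had a bound of 1.15-fold. Dnajb3, Dnajb7 and Dnajb13 were at background on both arrays.

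Class C was the largest, with 20 of 28 genes measured, 14 below 0 and a median of -0.26. Of all named genes 49.5% were measured, and of those 55.8% were below 0 (median -0.08). Members of class C serve many sites in the cell. Dnajc7, which binds both Hsp70 and Hsp90, had 1002 in SoNar-high and 2483 in SoNar-low cells (-1.06, 2.08-fold lower). It passed 2-fold after normexp (-1.21). With the scalings to detected probes, quantile normalization, loess and the deposited table it was under 2-fold (-0.99 to -0.84). The remaining settings repeat its value, since it has 1 probe. Dnajc9, a chaperone of newly made histones H3 and H4, had 5197 in SoNar-high and 8763 in SoNar-low cells (-0.50). Dnajc8, found in spliceosomes, had -0.37 at its brightest of 3 probes (1813 in SoNar-high, 2791 in SoNar-low cells). Dnajc21, which acts in ribosome maturation, had -0.39 and -0.90 at its probes.

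The 6 class C genes above 0 were Dnajc14 (279 in SoNar-high and 216 in SoNar-low cells, 0.62), Dnajc4 (0.48), Dnajc30 (0.47), Dnajc5 (0.45), Dnajc13 (0.42) and Dnajc16 (0.07). Dnajc5, the cysteine string protein of secretory vesicles, had 3006 in SoNar-high and 2625 in SoNar-low cells at its bright probe, and -0.33 at a dim one. Dnajc13 is an endosomal J protein. The remaining members below 0 lay between -0.67 (Dnajc10) and -0.16 (Dnajc24, a J protein of diphthamide synthesis). Among them was Dnajc12 (-0.23), a co-chaperone of aromatic amino acid hydroxylases. Dnajc5b, Dnajc5g, Dnajc6, Dnajc17, Dnajc22, Dnajc25, Dnajc27 and Dnajc28 were at background on both arrays, and Dnajc6 encodes auxilin, which uncoats clathrin vesicles.

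Dnajc11 was read by many spots and by a further probe. Its product is tied to the mitochondrial inner membrane, and 1 of its probes is printed 10 times. The 9 usable spots ran from 93.5 over a median of 100.2 to 105.1 in SoNar-high cells, against 10 spots from 115 over 138 to 147 in SoNar-low cells. These unscaled signals did not overlap. After scaling they did, from -0.996 to -0.827 on the log2 scale in SoNar-high cells against -0.953 to -0.598 in SoNar-low cells, and the difference was -0.18. Another probe of the same gene gave 0.53, and why the probes differ was not tested.

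**Figure D3:**
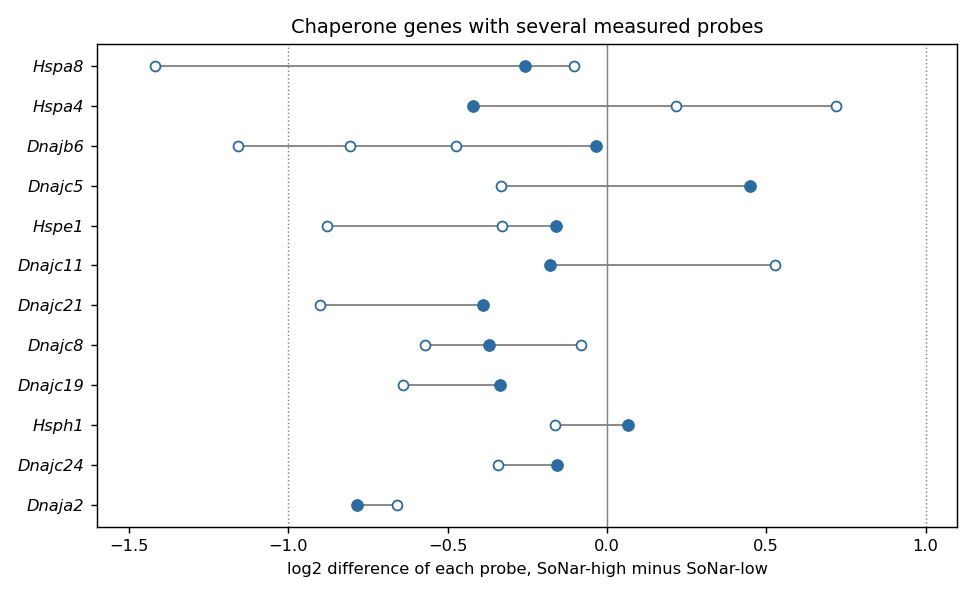
Log2 difference (horizontal axis, SoNar-high minus SoNar-low) at each measured probe of the 12 chaperone genes with several; the filled point is the brightest probe, used for the gene, and dotted lines mark 2-fold. Probes of Hspa8, Hspa4 and Dnajb6 spread by more than 1, and those of Hspa4, Dnajc5, Dnajc11 and Hsph1 lie on both sides of 0.

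Across these 12 genes the median spread between probes was 0.61, against 0.41 for 2021 genes of the array with several measured probes. The other 45 measured chaperone genes rest on 1 probe each, among them all CCT genes and the 5 beyond 2-fold. Dnaja4 has a further probe, which was at background.

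Most small heat shock protein genes were not detected. Of 8 genes, 5 were at background on both arrays, as were 8657 of all 20659 named genes. The 5 were the heat-inducible Hspb1 (9.26 in SoNar-high, 7.93 in SoNar-low cells) and Hspb8 (9.33 and 8.84), and also Hspb2, Hspb3 and Hspb7. Hspb6 had 138 in SoNar-high and 87.1 in SoNar-low cells (0.92), and Hspb9, known from testis, had 101 and 109 (0.14). Hspb11 had 163 in SoNar-high and 426 in SoNar-low cells (-1.13, 2.19-fold lower). Its product is a subunit of the intraflagellar transport complex rather than a classical small heat shock protein. The difference of Hspb11 was under 2-fold after normexp (-0.63) and with the 75th percentile of detected probes (-0.98), and past it in the other 7 settings. Some of the 7 only repeat its value, since it has 1 probe.

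Sorted by site of action, the mitochondrial members were lower in 7 of 8 cases, with a median of -0.31, whereas 55.8% of all genes were below 0. Dnajc19 (-0.34) and Dnajc15 (-0.29), J proteins of the protein import motor, lay near Dnaja3 and Hspa9. Dnajc30 was the exception (513 in SoNar-high and 440 in SoNar-low cells). Members of the endoplasmic reticulum were below 0 in 8 of 10 cases, with a median of -0.36. After loess 6 of these 10 were below 0 (median -0.21) and 6 of the 8 mitochondrial members (-0.14), against 48.5% of all genes. The endoplasmic reticulum count was also 6 after quantile normalization, in the deposited table and with the 75th percentile of detected probes. Dnajc10, a disulfide reductase, had 175 in SoNar-high and 332 in SoNar-low cells (-0.67), and Dnajc3 (p58IPK) had 265 and 405 (-0.36), close to Dnajc1 (-0.37). After normexp Dnajc3 had -0.13 and Dnajc1 -0.57.

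Folding partners in the same organelles were looked at beside them. Of 18 measured genes out of 19, 13 were below 0, none passed 2-fold and the median was -0.23 (-0.04 after loess, with 11 below 0). All genes had 55.8% below 0, 9.72% past 2-fold and a median of -0.08. After loess 48.5% of all genes were below 0 (median 0.018). Relative to all genes the list median was -0.15, and -0.02 in the deposited table and after quantile normalization. The disulfide isomerase gene Pdia6 had 5715 in SoNar-high and 11979 in SoNar-low cells (-0.82), and Hscb, the mitochondrial J protein of iron-sulfur cluster assembly, had 1167 and 2140 (-0.62). On the other side stood the lectin chaperone gene Calr, with 3693 in SoNar-high and 3100 in SoNar-low cells (0.51), and Pdia3, with 4115 and 3547 (0.47). The listed probe of Hyou1 was at background.

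Genes known as targets of heat shock factors were looked at as a list. Of 12 with a probe, 9 were measured and 7 were below 0, from Hspd1 (-1.15) to Hspa4l (0.20), with a median of -0.17. All genes had 55.8% below 0 and a median of -0.08. The direction of the list depended on the setting, since 4 of the 9 were below 0 after loess (median 0.016) and 5 in the deposited table (median -0.03). All genes had 48.5% below 0 after loess and 52.7% in the deposited table. Relative to all genes the list median was -0.09 here, -0.003 after loess and 0.006 in the deposited table. Promoter windows of RefSeq (GRCm38.p6, 250 bases before to 50 after a start) were at hand for 67 of the 99 symbols, and 20 of them held GAANNTTC or TTCNNGAA, against 17.0% of 27025 genes. Both patterns read the same on either strand and can overlap each other. The 12 measured members with a match had a median difference of -0.18, and the 33 without had -0.34. A match is a run of letters and not evidence of binding.

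Matches in Dnaja4 and Cct5 are shown because these members lie toward opposite ends of the differences. For Dnaja4 the runs are chr9:54699458-54699487 and chr9:54699496-54699525 on the plus strand, and for Cct5 the 200 bases before the start are chr15:31601847-31602046 on the minus strand. Capitals mark the same patterns.
Dnaja4 distal: ggaacctccgcGAACGTTCtgggcctatgt
Dnaja4 proximal: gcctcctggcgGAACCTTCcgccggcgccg
Cct5: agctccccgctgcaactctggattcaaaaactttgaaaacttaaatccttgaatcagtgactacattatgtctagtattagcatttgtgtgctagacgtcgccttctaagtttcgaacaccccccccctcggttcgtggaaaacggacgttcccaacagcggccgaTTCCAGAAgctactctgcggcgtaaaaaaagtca
Dnaja4 (1.02) has 2 matches of GAANNTTC, which begin at positions -90 and -52 from the start, and Cct5 (-0.86) has 1 of TTCNNGAA, at -34.

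The endoplasmic reticulum stress element, searched on both strands as CCAAT, any 9 bases and CCACG, was found in 3 of the 67 windows, against 0.137% of 27025 genes. The 3 were Hspa5 (-0.02), Hsp90b1 (-0.43) and Dnajc3 (-0.36). Those of Hspa5 (chr2:34771890-34772089, plus strand) and Hsp90b1 (chr10:86705445-86705694, minus strand) are shown with the element in capitals, since their products are the Hsp70 and Hsp90 of this compartment.
Hspa5: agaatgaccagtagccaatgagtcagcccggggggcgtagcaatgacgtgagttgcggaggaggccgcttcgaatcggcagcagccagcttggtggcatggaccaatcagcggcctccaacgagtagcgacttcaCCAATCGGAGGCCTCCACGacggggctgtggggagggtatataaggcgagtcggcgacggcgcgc
Hsp90b1: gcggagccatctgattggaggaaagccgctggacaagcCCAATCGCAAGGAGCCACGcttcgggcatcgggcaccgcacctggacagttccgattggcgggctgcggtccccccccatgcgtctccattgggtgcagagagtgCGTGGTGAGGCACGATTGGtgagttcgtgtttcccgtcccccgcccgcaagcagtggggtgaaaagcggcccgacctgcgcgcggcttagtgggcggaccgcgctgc
Hsp90b1 has 2 such elements, one on each strand. Of the 3 genes, Hspa5 differed by less than the spread between spots and the others by more, but after normexp Dnajc3 (-0.13) also differed by less.

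**Figure D4:**
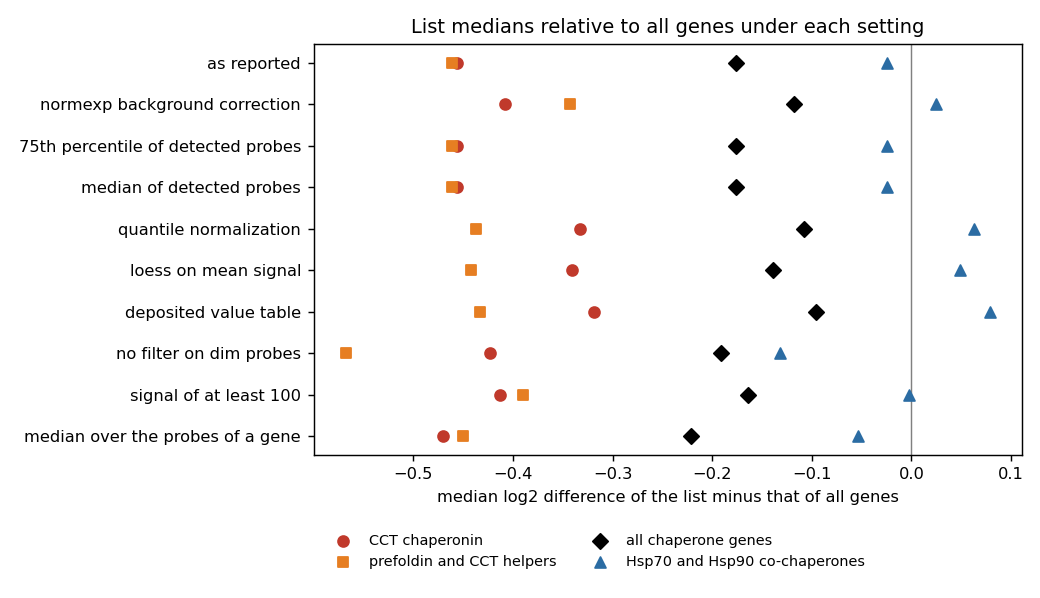
Median log2 difference of a list minus the median of all genes (horizontal axis) under each processing setting (rows), for CCT, for prefoldin with the CCT helpers, for all measured chaperone genes and for the co-chaperones of Hsp70 and Hsp90. CCT stays between -0.47 and -0.32 and all chaperone genes between -0.22 and -0.10, whereas the co-chaperones lie on both sides of 0. Scaling to detected probes shifts a list and all genes alike, so those rows cannot differ from the reported one.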

How the data were processed

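The deposited files are 2 scanner files, 1 per group, and 1 value table. Spot intensities were made by the authors with Agilent Feature Extraction (11.0.1.1 per the file headers, 9.1 per the submitters' processing notes), which subtracted background to give the processed signal. The deposited value table has log2 values with a normalization not given in the sources used here. Both its columns had a median of 4.80, and each correlated with its own array's log2 signal at 0.999. Its differences followed the direction used here (correlation 0.966 over 15975 measured probes), so it served as an alternative.

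Control spots and spots with an outlier flag were left out. The 75th percentile of log2 processed intensity over non-control spots was subtracted per array and spots of a probe averaged. Flags for background, saturation and outliers are the scanner software's. No spot was saturated. Probes were named through their transcript accessions in the RefSeq table of GRCm38.p6, used for names only, since the design's build is mm9. In all 27234 of 39429 probes matched 1 gene. The measured probe of highest mean signal stood for its gene. For a gene detected on 1 array, the bound is its value there over the lowest detected value of the other array, or over its own value if that was higher.

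With 1 array per group no test was run, and genes were counted at 2-fold. The members, gene lists and settings were chosen with earlier results of these data known. Genes named with values are all members past 2-fold or with such a bound, in each class the 3 of largest difference and the brightest, the full CCT, Hsp90, Hsp110 and Hsp60/Hsp10 classes, members of the organelle and heat shock factor lists, and in each list of partners the 2 of largest positive and negative difference. Other members were named for their role, after their values were seen. Alternatives were normexp (limma 3.58.1, offset 50, on the median spot signal), 2 other scalings, quantile normalization, loess (span 0.3), the value table, no filter, a signal of at least 100, the median over probes and a 3-fold threshold. Counting was tested on simulated differences. Python 3.11.15 and R 4.3.3 were used.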

Additional observations from a re-analysis of the deposited data

How the results depend on the processing

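Of 57 measured chaperone genes, 46 kept their sign under all alternatives that gave them a value, among them 32 of the 42 below 0, and 11 did not. For a gene with 1 measured probe, settings that only change the filter or the choice of probe repeat its value or leave it out. Such repeats are no evidence that a sign or size holds. The count at least 2-fold higher (1) was 2 when detected probes set the 75th percentile and 5 of 80 genes without a filter on dim probes. It was 0 after normexp, after quantile normalization, in the deposited table and at 3-fold. The count at least 2-fold lower (4) was 1 with the 75th percentile of detected probes, 2 after loess and 0 at 3-fold. For all genes the counts of 540 higher and 454 lower were 251 and 257 after normexp and 146 and 48 at 3-fold. The lower count was 247 with the 75th percentile of detected probes. The higher count was 2476 of 20655 genes without a filter and 329 of 7800 with a signal of at least 100. Loess moved the median of CCT to -0.32, class A J proteins to -0.24, Hsp110 to 0.28, Hsp60 with Hsp10 to -0.46, Hsp70 to -0.10 and Hsp90 to 0.016. In the deposited table CCT had -0.35, class A -0.27, Hsp110 0.25, Hsp60 with Hsp10 -0.44 and Hsp70 -0.13. Quantile normalization gave CCT -0.38, class A -0.29 and Hsp60 with Hsp10 -0.45, and normexp gave the last pair -0.90. Without a filter class B had 0.13 and Hsp70 -0.14, over 12 and 10 genes. With a signal of at least 100 the small heat shock proteins had -0.49 over 2 genes. Loess removes the trend of the difference with signal, and filters change which genes are counted. Scaling to the 75th percentile of detected probes shifts every difference by 0.15, and a 3-fold threshold only asks for larger differences. For the remaining changes the cause was not tested. For chaperone classes, medians are printed where the shift exceeded 0.16, the spot-to-spot SD. Lists of partners and compartments also shifted. After loess the median of the mitochondrial members was -0.14, and the medians of heat shock factor targets (0.016) and co-chaperones (0.07) turned positive. Marker lists kept the sign of their median under every setting, with B lymphoid markers at -1.10 after normexp. No paired analysis was possible because each group holds 1 array and no test was run. Dim probes limit Hspa2, Hspa12b, Hspa13, Hspb6, Dnajb4 and Dnajc18 most, whose signals were under 100 on at least 1 array.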
